A study of Mus musculus with 12 samples.

Results

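The Crouzon genotype was compared with wild type in the newborn mouse frontal bone as an effect averaged over C57BL/6 and BALB/c mice. The comparison used 12 of the 12 RNA samples of the series, chosen by the genotype and strain in their labels, 6 mutants against 6 wild types. The 4 groups were C57BL/6 Wild Type, C57BL/6 FGFR2C342Y/+, BALB/c Wild Type and BALB/c FGFR2C342Y/+, with 3 samples each, all from postnatal day 3. Mutants carried 1 changed copy of Fgfr2 (a C342Y substitution in the receptor) beside a normal copy. The piece of skull held the frontal and nasal bones with the coronal and frontonasal sutures, and it was digested with collagenase and trypsin before RNA was extracted. The labels give neither the sex of the mice nor a statement that each sample was a separate animal. The p-values therefore measure the spread between these samples, which may in part be technical.

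FGFR2 is a receptor tyrosine kinase for fibroblast growth factors. In the developing skull it acts in osteoprogenitor cells at the edges of the growing bones, and through ERK, PI3K and phospholipase C it steers their growth and their change into osteoblasts. The sutures are strips of mesenchyme between the bones that supply new osteoblasts. Crouzon syndrome, which amino acid changes in the extracellular part of FGFR2 can cause, is a dominant disorder in which sutures close early and the midface is small. Osteoblasts lay down and mineralise the bone matrix, and osteoclasts, which descend from the macrophage lineage, resorb it.

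The averaged effect was the mean of the mutant-minus-wild-type difference in C57BL/6 and that in BALB/c, on the log2 scale, so each strain had the same weight. Changes are log2 fold changes, mutant over wild type: the averaged change is given with its standard error (SE), and the values for each strain are the effects within it. A gene was called where its adjusted p in the averaged effect was under 0.05. A gene was counted as shifted alike where it was called, and where all 3 mutants lay beyond all 3 wild types, in the same direction, in each strain separately. Levels are given in CPM, read counts scaled to a common library total, with TMM as a factor for library composition. Such values compare samples for 1 gene and not genes with each other. In bulk RNA, fewer cells of a type and less RNA per cell cannot be told apart.

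Total counts ran from 27181658 to 46521546 per sample, and in C57BL/6 every mutant sample was deeper than every wild type. All C57BL/6 libraries carried one sequencing run identifier and all BALB/c libraries another, so strain and run cannot be told apart, while both genotypes shared each run. The labelled tissue was checked per length in the deposited RPKM values: Col1a1 stood at a median of 18638, Bglap (osteocalcin) at 557 and Sp7 at 99.9 over the 12 samples. Fgfr2 had a median of 47 RPKM, Fgfr1 of 85.3, Fgfr3 of 31.5 and Fgfr4 of 0.512. Neighbouring tissue was present to differing extents: the summed level of 18 olfactory and airway genes was 627 to 1181 CPM in C57BL/6 wild types, 134 to 399 in C57BL/6 mutants and 84.1 to 93.1 in all BALB/c samples. The BALB/c mutant replicate 16 held 489 CPM of 13 skeletal muscle genes and 578 CPM of 13 neuron and glia genes, where the other 2 BALB/c mutants held at most 46.2 and 55.2. The 4 Y-linked genes summed to 145 to 185 CPM in all 3 C57BL/6 wild types and in 1 sample of each other group, and to 0.0984 to 1.36 CPM in the other 6. Beyond the covariate fits given below, the part of these differences in the results was not tested.

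The upstream sequence of 4 genes is shown because these genes were shifted alike and encode growth signals, a binding protein and a matrix protein, with 2 that were higher and 2 that were lower in mutants of both strains. Each is the 250 bases before the annotated start, 5′ to 3′ on the strand of the gene, from RefSeq on GRCm38.p6. Capitals mark a GC box (GGGCGG on either strand) or a TATA box (TATAAA on either strand).
Nppc (chr1:86670574-86670823, minus strand): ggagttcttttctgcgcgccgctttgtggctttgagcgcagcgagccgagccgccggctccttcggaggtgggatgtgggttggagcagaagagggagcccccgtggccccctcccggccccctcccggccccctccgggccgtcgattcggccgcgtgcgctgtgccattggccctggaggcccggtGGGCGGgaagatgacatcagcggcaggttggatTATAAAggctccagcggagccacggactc
Sned1 (chr1:93235647-93235896, plus strand): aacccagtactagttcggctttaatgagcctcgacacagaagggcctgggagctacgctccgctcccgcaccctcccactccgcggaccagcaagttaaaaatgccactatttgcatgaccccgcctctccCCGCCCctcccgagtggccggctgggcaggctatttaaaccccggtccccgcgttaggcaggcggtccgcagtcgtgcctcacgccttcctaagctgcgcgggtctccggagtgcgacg
Igfbp2 (chr1:72824230-72824479, plus strand, the first of its listed starts): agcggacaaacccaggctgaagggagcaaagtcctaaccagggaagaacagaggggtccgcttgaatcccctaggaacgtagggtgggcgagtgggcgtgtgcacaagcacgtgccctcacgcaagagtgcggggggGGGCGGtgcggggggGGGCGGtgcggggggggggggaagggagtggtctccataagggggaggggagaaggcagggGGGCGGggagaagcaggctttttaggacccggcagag
Fgf18 (chr11:33147401-33147650, minus strand): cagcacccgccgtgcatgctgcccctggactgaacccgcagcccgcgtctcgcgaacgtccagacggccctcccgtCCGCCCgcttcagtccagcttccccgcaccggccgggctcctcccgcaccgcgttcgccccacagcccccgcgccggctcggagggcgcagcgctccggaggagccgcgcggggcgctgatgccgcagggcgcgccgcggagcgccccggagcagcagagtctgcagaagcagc

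The Nppc window held a TATA box starting 29 bases and a GC box starting 62 bases before the start. Igfbp2 held 3 GC boxes, and Sned1 and Fgf18 held 1 each. Among the same windows of 27025 mouse genes, 32.9% held a GC box and 13% held a TATA box. None of the printed windows held the letters searched for AP-1 (TGANTCA, in 6.87% of all windows), RUNX (TGTGGT, 14.2%) or ETS (CCGGAAG, 7.05%). The same was true of the CArG box (1.4%) and the TCF/LEF motif (7.67%), each searched on both strands. These matches describe letters in these windows and no binding was measured. An upstream sequence was found for 17 of the 23 leading genes below and for 70.6% and 72.0% of the genes shifted alike upward and downward. Since these shares are under 80%, motif shares over the sets are void and are not given.

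The averaged effect was called for 1294 of 16190 genes tested (7.99%), of which 763 were higher (4.71%) and 531 lower (3.28%) in mutants. Of these, 427 genes (2.64% of those tested) were shifted alike in both strains, 238 upward (1.47%) and 189 downward (1.17%). This balance depended on the scaling: with libraries scaled by their totals, without a composition factor, 328 genes were called higher and 664 lower, and 124 were shifted alike upward and 228 downward. The C57BL/6 effect was larger in 318 of the 427, with a median size of 0.44 on the log2 scale against 0.27 in BALB/c. The 2 strains' effects differed by the interaction test in 32 of the 427. A further 613 called genes (47.4%) had effects of the same sign in both strains but separated mutants from wild types in C57BL/6 only, and their median size in BALB/c was 0.11 against 0.57 in C57BL/6. Genotypes were apart in 41.6% of all tested genes in C57BL/6 and in 20% in BALB/c. Another 53 called genes (4.10%) with effects of the same sign separated the genotypes in BALB/c only. The effects had opposite signs in 200 called genes (15.5%), and each of these passed the interaction test. Genotypes that did not overlap in either strain moved the same way in 608 genes (3.76%) and opposite ways in 852 (5.26%), whether called or not. A call in the average therefore does not by itself show a change in both strains.

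**Figure D1:**
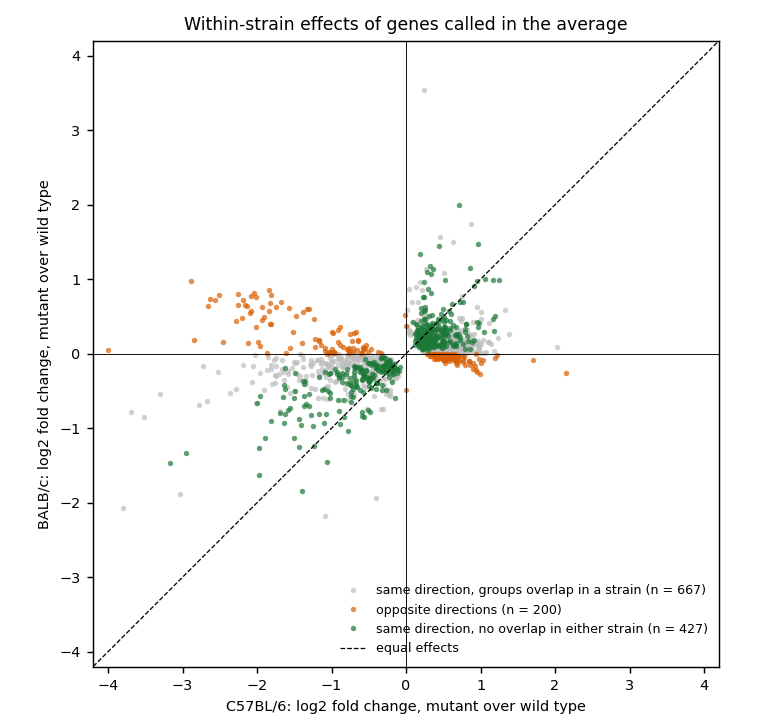
Each point is 1 of 1290 genes called in the averaged effect, with the log2 fold change (mutant over wild type) in C57BL/6 on the horizontal and in BALB/c on the vertical axis; 4 called genes lie outside the axes. The 427 genes shifted alike (green) lie in the quadrants of equal sign, most of them nearer the C57BL/6 axis than the dashed line of equal effects, and the 200 with opposite signs (orange) lie in the other quadrants.

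A stricter test asked for an effect in each strain, by taking the larger of the 2 within-strain p-values. By edgeR's quasi-likelihood test it called 0 genes at an adjusted p under 0.05, with 381 genes (2.35%) at an unadjusted p under 0.05. DESeq2 called 18 genes in the same way and limma-voom called 1. The smallest adjusted p by edgeR was 0.0779, for Penk. Within BALB/c alone, 22 genes (0.136%) were called, against 3867 (23.9%) within C57BL/6.

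**Figure D2:**
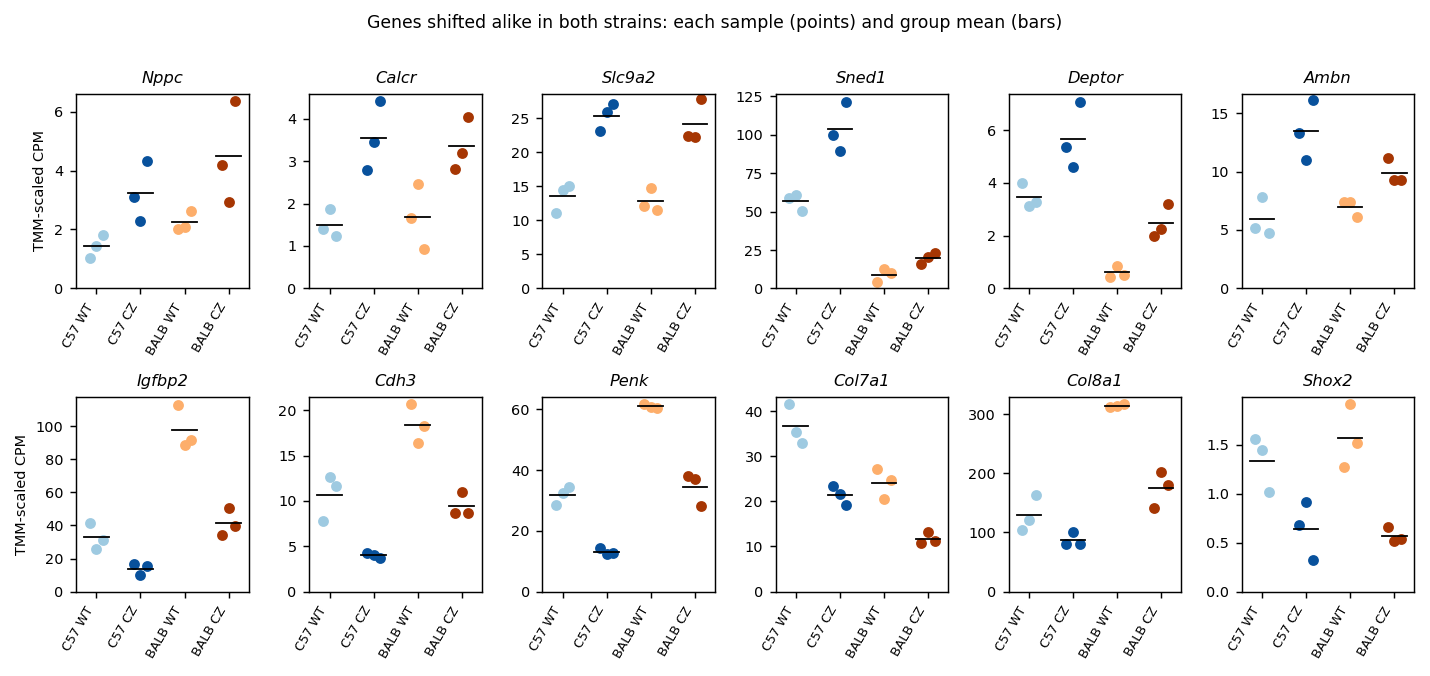
TMM-scaled CPM (vertical axes, each from 0) of 12 genes in the 12 samples, with WT for wild type and CZ for mutant; points are samples and bars are means of 3. In every panel the mutants lie on 1 side of the wild types in each strain, upward in the upper row and downward in the lower row.

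Among genes that rose alike, Slc9a2, a sodium-proton exchanger of the cell membrane (chr1:40681712-40768885), had nearly equal effects. In C57BL/6 it stood at 11, 14.5 and 15.1 CPM in wild types and 23.1, 25.9 and 27 CPM in mutants. In BALB/c it was at 12.2, 14.8 and 11.5 CPM in wild types and 22.4, 22.3 and 27.8 CPM in mutants. The lowest of the 6 mutants was thus well above the highest of the 6 wild types, across strains as well as within them. Its averaged log2 fold change was 0.91 ± 0.10 (SE; adjusted p = 0.00123), with effects of 0.91 in C57BL/6 and 0.91 in BALB/c. Nppc encodes C-type natriuretic peptide, a signal that drives bone growth through a guanylyl cyclase receptor and that counters FGF signalling in growth plate cartilage (chr1:86666293-86670573). Its C57BL/6 values were 1.04, 1.45 and 1.82 CPM in wild types and 3.12, 2.28 and 4.31 CPM in mutants. The BALB/c values were 2.03, 2.1 and 2.64 CPM in wild types and 4.2, 2.93 and 6.35 CPM in mutants. The genotypes did not overlap in either strain, though the ranges met across strains. Nppc rose by 1.08 ± 0.23 (SE; adjusted p = 0.0177). Its call was lost without BALB/c wild-type replicate 13 or without BALB/c mutant replicate 18, with an adjusted p of up to 0.0519.

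Calcr encodes the calcitonin receptor, through which calcitonin stops osteoclasts from resorbing bone (chr6:3685720-3764713). In C57BL/6 it was at 1.4, 1.87 and 1.23 CPM in wild types and 2.8, 3.44 and 4.42 CPM in mutants. The BALB/c samples held 1.65, 2.47 and 0.937 CPM in wild types and 2.82, 3.19 and 4.04 CPM in mutants. All 6 mutants lay above all 6 wild types. The averaged log2 fold change was 1.12 ± 0.23 (SE; adjusted p = 0.0161), and the effects were 1.24 in C57BL/6 and 0.99 in BALB/c. Deptor, an inhibitory partner of the mTOR kinase complexes, had a larger estimate in BALB/c (chr15:55112483-55254202). The values were 4, 3.13 and 3.27 CPM in wild types and 5.38, 4.61 and 7.06 CPM in mutants of C57BL/6. They were 0.451, 0.865 and 0.527 CPM in wild types and 1.98, 2.24 and 3.2 CPM in mutants of BALB/c. The BALB/c mutant replicate 18 reached the range of the C57BL/6 wild types, and the other 2 BALB/c mutants stayed below it. Deptor rose by 1.35 ± 0.20 (SE; adjusted p = 0.00309), and the strains' effects of 0.71 in C57BL/6 and 2.00 in BALB/c did not differ by the interaction test (adjusted p = 0.0557).

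Sned1, a secreted matrix glycoprotein (chr1:93235897-93296448), was at 59.2, 61.1 and 50.4 CPM in wild types and 99.8, 89.6 and 121 CPM in mutants of C57BL/6. BALB/c gave 4.21, 12.5 and 9.72 CPM in wild types and 15.8, 20.2 and 23 CPM in mutants. The highest BALB/c mutant was below the lowest C57BL/6 wild type. The averaged change was 1.00 ± 0.19 (SE; adjusted p = 0.01). Ambn encodes ameloblastin, a matrix protein of enamel that is also made in bone, and it rose by 0.85 ± 0.14 (SE; adjusted p = 0.00515), with 1.19 in C57BL/6 and 0.51 in BALB/c. The transcription factor gene Gata3 rose by 0.96 ± 0.23 (SE; adjusted p = 0.0276), with effects of 0.95 in C57BL/6 and 0.98 in BALB/c, and it was called in 7 of the 12 fits that each left out 1 sample. Msln, which encodes the cell surface protein mesothelin, rose by 0.82 ± 0.15 (SE; adjusted p = 0.00805).

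For Elk4, Cbl, Foxn3 and Pdpr, as for Deptor and Sned1, the estimated effect was larger in BALB/c and the BALB/c level was far below that of C57BL/6. These 6 are set side by side after their values were seen, and only Elk4 passed the interaction test. The adjusted p of that test was 0.0753 for Cbl, 0.318 for Foxn3, 0.158 for Pdpr and 0.653 for Sned1. Elk4 encodes an ETS factor that ERK phosphorylates, and its values were 21.1, 22.2 and 22.2 CPM in wild types and 24.9, 29.1 and 28.1 CPM in mutants of C57BL/6. They were 5.93, 6.61 and 5.8 CPM in wild types and 10.5, 12.2 and 18.6 CPM in mutants of BALB/c. Its effects of 0.33 in C57BL/6 and 1.17 in BALB/c differed by the interaction test (adjusted p = 0.0428), and the average was 0.75 ± 0.12 (SE; adjusted p = 0.00432). Cbl, a ubiquitin ligase that marks active receptor tyrosine kinases for breakdown, had effects of 0.19 ± 0.26 in C57BL/6 and 1.33 ± 0.29 in BALB/c, so the C57BL/6 estimate was within its standard error of 0. Its average of 0.76 ± 0.19 (SE; adjusted p = 0.0334) was called in 5 of the 12 fits without 1 sample. Foxn3, a forkhead repressor, changed by 0.75 ± 0.15 (SE; adjusted p = 0.0114), and Pdpr, a regulator of pyruvate dehydrogenase phosphatase, changed by 0.75 ± 0.17 (SE; adjusted p = 0.0263). The call of Pdpr was kept in 7 of the 12 fits without 1 sample. Whether this shared low BALB/c level belongs to the strain or to its sequencing run cannot be told apart.

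**Figure D3:**
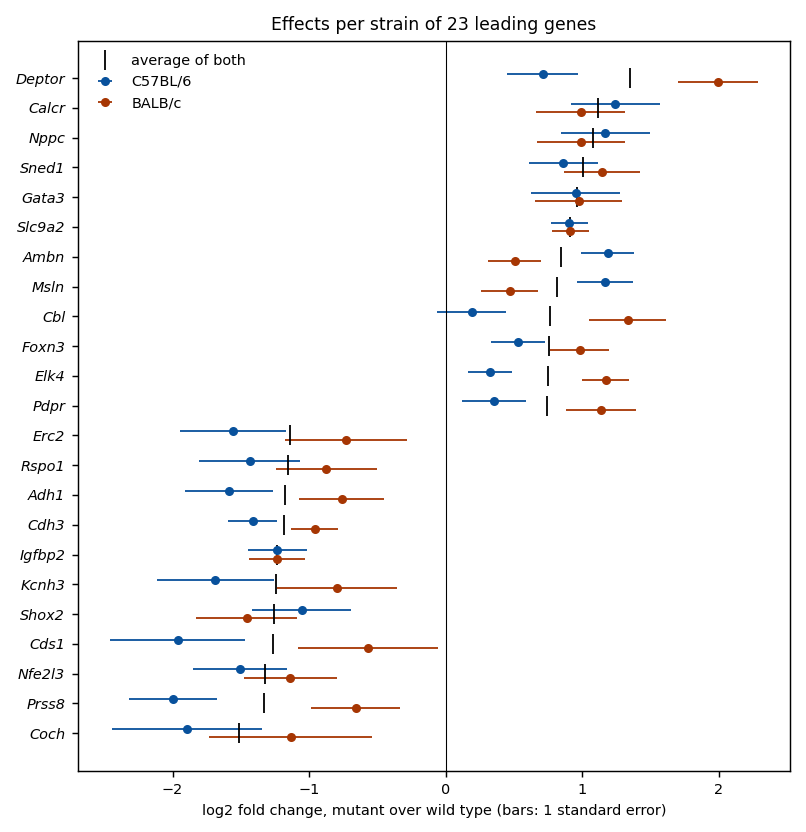
Log2 fold change (mutant over wild type, horizontal axis) of the 12 genes with the largest averaged rise and of 11 of the 12 with the largest averaged fall among genes shifted alike with a mean of at least 1 CPM. Points with bars are the estimate and 1 standard error in C57BL/6 (blue) and BALB/c (brown), and ticks are the averages; Slc9a2, Gata3 and Igfbp2 have nearly equal effects, whereas the estimates of Deptor, Cbl and Elk4 are larger in BALB/c and those of Prss8 and Cds1 in C57BL/6; of these 5 only Elk4 passed the interaction test.

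Among genes that fell alike, Igfbp2 also had nearly equal effects. It encodes a secreted binding protein that holds insulin-like growth factors and limits their access to their receptor (chr1:72824480-72852471). Its C57BL/6 values were 41.3, 25.5 and 31.4 CPM in wild types and 16.6, 10.1 and 15.2 CPM in mutants. The BALB/c values were 113, 88.7 and 91.6 CPM in wild types and 34.4, 50.4 and 39.4 CPM in mutants. In each strain the highest mutant was well below the lowest wild type. The log2 change was -1.23 ± 0.15 (SE; adjusted p = 0.00179), with -1.23 in C57BL/6 and -1.24 in BALB/c. Cdh3 encodes P-cadherin, a cell adhesion protein (chr8:106510891-106556908). It was at 7.74, 12.6 and 11.6 CPM in wild types and 4.25, 4.03 and 3.72 CPM in mutants of C57BL/6. For BALB/c the values were 20.7, 16.4 and 18.3 CPM in wild types and 8.69, 11 and 8.71 CPM in mutants. Cdh3 fell by 1.19 on the log2 scale (adjusted p = 0.00112).

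Shox2, a homeobox gene of head and limb development (chr3:66973266-66981771), was low in every sample, at 1.56, 1.45 and 1.02 CPM in wild types and 0.678, 0.922 and 0.323 CPM in mutants of C57BL/6. It was at 1.28, 1.91 and 1.52 CPM in wild types and 0.66, 0.517 and 0.541 CPM in mutants of BALB/c. All 6 mutants lay below all 6 wild types, and the change was -1.26 ± 0.26 (SE; adjusted p = 0.0161).

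Penk, which encodes the precursor of the enkephalin opioid peptides, was not among the 12 largest falls but had the smallest p of the genes shifted alike. It was picked with Cp, Tbx2 and Lrp4 after their values were seen. In C57BL/6 it was at 28.6, 32.5 and 34.4 CPM in wild types and 14.3, 12.5 and 12.7 CPM in mutants. In BALB/c it was at 61.8, 61 and 60.5 CPM in wild types and 38, 37.2 and 28.3 CPM in mutants. The BALB/c mutants overlapped the C57BL/6 wild types, and within each strain the genotypes were far apart. Penk changed by -1.05 ± 0.08 (SE; adjusted p = 0.000177). Cp (ceruloplasmin, a copper-carrying ferroxidase) rose by 0.67 ± 0.06 (SE; adjusted p = 0.000825), Tbx2 (a T-box repressor) by 0.70 ± 0.07 (SE; adjusted p = 0.00123) and Lrp4 (a membrane receptor through which sclerostin restrains Wnt signalling in bone) by 0.54 ± 0.06 (SE; adjusted p = 0.00177). For all 3 the rise was smaller in BALB/c by the interaction test.

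A further 8 leading falls were in Coch, Prss8, Nfe2l3, Cds1, Kcnh3, Adh1, Rspo1 and Erc2. In each of these 8 the estimated fall was larger in C57BL/6, though none passed the interaction test. The BALB/c effect was -0.57 ± 0.51 (SE) for Cds1, -0.73 ± 0.45 for Erc2 and -1.14 ± 0.60 for Coch. Adh1, an alcohol dehydrogenase that also oxidises retinol, changed by -1.17 ± 0.22 (SE; adjusted p = 0.011), and Nfe2l3, a stress-linked leucine zipper factor, changed by -1.32 ± 0.24 (SE; adjusted p = 0.00887). Prss8, a membrane-anchored serine protease of epithelia, changed by -1.33 ± 0.23 (SE; adjusted p = 0.00672). These 3 kept their call in each of the 12 fits without 1 sample. Rspo1, a secreted amplifier of Wnt signals, changed by -1.15 ± 0.26 (SE; adjusted p = 0.0227) and was called in 8 of the 12 such fits. Coch changed by -1.51 ± 0.40 (SE; adjusted p = 0.0408), but was called in 1 of the 12, and Cds1 (-1.27), Erc2 (-1.14) and Kcnh3 (-1.24) were called in 2, 2 and 5 of the 12. Where a sample was left out, the adjusted p of these 4 reached 0.102, 0.122, 0.0923 and 0.0825. Rspo2, another member of the Rspo1 family, was picked after its values were seen and changed by -1.05 ± 0.25 (SE; adjusted p = 0.0272), with 6 of the 12 such fits calling it.

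Of the leading genes, 8 of 12 that rose and 6 of 11 that fell kept their call whichever sample was left out. A model with only strain and genotype, in which unequal strain effects count as spread, called 8 of the 12 that rose and 4 of the 11 that fell. With the mean level of 13 erythroid genes as a covariate, 0 in either direction were called, and with that of 15 ciliated-cell genes, 1 in each direction was. Of the variance of these covariates, 98.6% (erythroid) and 83.6% (ciliated) lay between the 4 groups. Of the erythroid covariate's variance within a strain, 95.5% in C57BL/6 and 96% in BALB/c lay between genotypes, and of the ciliated covariate's 70.3% and 14.4%. With the Y-linked level as a covariate, 11 of the 12 that rose and 7 of the 11 that fell were called. Deptor, Pdpr, Prss8, Kcnh3, Cp and Ksr1 each overlap another annotated gene, as do Runx2, Slc20a2, Gli1, Ccna2, Adcy3, Plcg1, Lgr5, Gata1 and Tagln below. With the strand setting of the counting not given in the sources used here, the counts of these genes may include reads of that gene.

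The targeted gene is described first among the FGF receptors, whatever its rank. Fgfr2 counts include both the changed and the normal copy, so they do not check the genotype. Fgfr2 (chr7:130162451-130266808) was at 212, 252 and 283 CPM in wild types and 337, 370.01 and 375 CPM in mutants of C57BL/6. The BALB/c samples held 269, 287 and 290.2 CPM in wild types and 271, 310.3 and 318 CPM in mutants. The genotypes were apart in C57BL/6 and overlapped in BALB/c, with effects of 0.54 in C57BL/6 and 0.09 in BALB/c and an average of 0.31 ± 0.07 (SE; adjusted p = 0.0227). The interaction test had an adjusted p of 0.0638. Of 14 FGF ligands and receptors tested, 2 were called higher and 2 lower, beside 4.71% and 3.28% of all genes, with a list median of 0.04. Fgfr1, a related receptor that also acts in osteoblasts, changed by 0.28 ± 0.07 (SE; adjusted p = 0.0273), with 0.51 in C57BL/6 and 0.05 in BALB/c. Fgfr2 was called in 8 of the 12 and Fgfr1 in 6 of the 12 fits without 1 sample. Neither was called with the Y-linked level as a covariate or in the model of strain and genotype alone.

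Both FGF ligands that were called fell. Fgf18, which promotes osteoblast differentiation in the calvaria, was the one shifted alike (chr11:33117431-33147400). In C57BL/6 it was at 2.08, 2.41 and 2.95 CPM in wild types and 1.36, 1.89 and 1.19 CPM in mutants. BALB/c gave 5.26, 7.16 and 4.51 CPM in wild types and 3.72, 4.09 and 2.95 CPM in mutants. The genotypes did not overlap within a strain, while the 3 BALB/c mutants were above all C57BL/6 wild types, the lowest of them barely. Fgf18 changed by -0.70 ± 0.17 (SE; adjusted p = 0.0314), with -0.74 in C57BL/6 and -0.65 in BALB/c, and was called in 5 of the 12 fits without 1 sample. Fgf9, a ligand made in the skeletal condensations, changed by -0.61 ± 0.13 (SE; adjusted p = 0.0167), and its genotypes overlapped in BALB/c.

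Of 20 feedback and target genes of FGF and ERK signalling, 2 were called higher and 1 lower, beside 4.71% and 3.28% of all genes. Spry1, a feedback inhibitor of receptor tyrosine kinases, rose by 0.27 ± 0.06 (SE; adjusted p = 0.0204), and its call was lost without BALB/c wild-type replicate 13 or mutant replicate 18 (adjusted p up to 0.0592). Elk4 is described above. Ccnd1, the cyclin that drives entry into the cell cycle, was at 127, 119 and 127 CPM in wild types and 75.5, 77.4 and 52.6 CPM in mutants of C57BL/6. For BALB/c the values were 99.4, 87.9 and 108 CPM in wild types and 80.6, 75.8 and 80.9 CPM in mutants. The mutants were below the wild types in each strain, and the change was -0.59 ± 0.09 (SE; adjusted p = 0.00332). The other 17 genes of the list were not called. Of the intracellular effectors that receptor tyrosine kinases use, Pik3r1, Ksr1, Gab1 and Plcg1 were picked after their values were seen, and all 4 were shifted alike by small amounts. Pik3r1, the regulatory subunit of PI3K, rose by 0.29 ± 0.04 (SE; adjusted p = 0.00408), with 0.46 in C57BL/6 and 0.12 in BALB/c. Ksr1, a scaffold of the ERK cascade, rose by 0.28 ± 0.06 (SE; adjusted p = 0.0181) and lost its call without C57BL/6 mutant replicate 6 (adjusted p = 0.0558). Gab1 (0.20) and Plcg1 (0.18) were called in 3 of the 12 and 5 of the 12 fits without 1 sample, and neither was called when libraries were scaled by their totals.

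In the insulin-like growth factor system, 2 of 15 genes were called higher and 1 lower, beside 4.71% and 3.28% of all genes. Igfbp2 was the lower one. Igfbp5, a binding protein stored in bone matrix, rose by 0.41 ± 0.07 (SE; adjusted p = 0.00836), but its effects of 0.81 in C57BL/6 and 0.01 in BALB/c differed by the interaction test. Igf1, the main circulating and local growth factor of the system, rose by 0.29 ± 0.07 (SE; adjusted p = 0.0323) and was called in 5 of the 12 fits without 1 sample. Deptor was the only called gene of 14 in the mTOR complexes (7.99% of all genes were called). In the C-type natriuretic peptide pathway 1 of 8 genes rose, Nppc, and 1 fell, Prkg2, the kinase that acts downstream of the receptor (4.71% and 3.28% of all genes). Prkg2 changed by -0.86 ± 0.22 (SE; adjusted p = 0.0359), overlapped in BALB/c and was called in 4 of the 12 fits without 1 sample.

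Receptors of the interleukin 6 family, picked after their values were seen, split in direction. Il11ra1, the receptor subunit for interleukin 11, a factor tied to suture patency and osteoclast formation, was at 18.2, 19.1 and 17.3 CPM in wild types and 13.6, 12.4 and 12.8 CPM in mutants of C57BL/6. The matching BALB/c values were 54.5, 43.9 and 48.7 CPM in wild types and 35.8, 38.4 and 34.3 CPM in mutants. Wild types and mutants were well apart in each strain, and the change was -0.47 ± 0.06 (SE; adjusted p = 0.00185), with -0.50 in C57BL/6 and -0.44 in BALB/c. Il11ra1 overlaps Ccl27a and has near-identical copies in mouse, so its counts are uncertain. Il6st, the shared signalling subunit gp130, rose by 0.28 ± 0.05 (SE; adjusted p = 0.00836), with 0.25 in C57BL/6 and 0.31 in BALB/c. Cntfr, the subunit for ciliary neurotrophic factor, changed by -0.41 ± 0.11 (SE; adjusted p = 0.0452) and was called in 2 of the 12 fits without 1 sample.

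Among 20 BMP ligands and antagonists, 3 were called higher and 1 lower, beside 4.71% and 3.28% of all genes. Bmp3, a BMP family member that restrains bone formation, rose alike. In C57BL/6 it was at 37.6, 47.2 and 41.8 CPM in wild types and 67.8, 71 and 70.1 CPM in mutants. In BALB/c it was at 43.3, 45.7 and 44.9 CPM in wild types and 47.1, 53.7 and 51.1 CPM in mutants. The BALB/c difference was narrow but without overlap, and the average was 0.45 ± 0.05 (SE; adjusted p = 0.00179). Bmp1, a protease that matures procollagen, and Id1, a BMP target, were called higher on average. Bmp1 had 0.56 in C57BL/6 and -0.06 in BALB/c and was called in 6 of the 12 fits without 1 sample. Id1 had 0.75 in C57BL/6 and 0.05 in BALB/c and was called in 3 of the 12. Smoc1 and Chrdl1, 2 other secreted regulators of BMP signals picked after their values were seen, fell alike. Chrdl1 was at 77.1, 66.7 and 68.6 CPM in wild types and 46.4, 45.8 and 36.4 CPM in mutants of C57BL/6. It was at 56.9, 65.6 and 55 CPM in wild types and 44.6, 46.7 and 40.6 CPM in mutants of BALB/c. The change was -0.58 ± 0.07 (SE; adjusted p = 0.00185). Smoc1 changed by -0.91 ± 0.19 (SE; adjusted p = 0.0161), and its call was lost without BALB/c mutant replicate 18 (adjusted p = 0.0509).

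Of 11 genes of the Hedgehog and PTHrP pathway, 2 were called higher and 3 lower, beside 4.71% and 3.28% of all genes. Gli3, which encodes a Hedgehog-regulated factor that mostly acts as a repressor, rose alike. It was at 40.8, 41.1 and 47.2 CPM in wild types and 54.6, 61.5 and 60.8 CPM in mutants of C57BL/6. It was at 25.5, 27.2 and 25.1 CPM in wild types and 30.3, 32.1 and 35.3 CPM in mutants of BALB/c. Gli3 rose by 0.39 ± 0.06 (SE; adjusted p = 0.00295), with 0.45 in C57BL/6 and 0.33 in BALB/c. The pathway's readout genes fell on average: Gli1 changed by -0.36 ± 0.09 (SE; adjusted p = 0.0307) with equal effects of -0.36 in C57BL/6 and -0.37 in BALB/c, though the genotypes overlapped in both strains. Hhip, a target that binds Hedgehog ligands, changed by -0.74 ± 0.14 (SE; adjusted p = 0.0108) and overlapped in BALB/c. The ligand Ihh changed by -1.05 ± 0.16 (SE; adjusted p = 0.00399), with -1.87 in C57BL/6 and -0.23 in BALB/c, a difference that passed the interaction test. Gli1 was called in 5 of the 12 fits without 1 sample. Of 20 suture mesenchyme genes, 3 were called higher and 2 lower (4.71% and 3.28% of all genes) and 0 were shifted alike (2.64% of all genes). Tnn, a tenascin of the matrix of forming bone, changed by -1.02 ± 0.18 (SE; adjusted p = 0.00766), with -1.59 in C57BL/6 and -0.45 in BALB/c. The forkhead gene Foxc1 had 0.37 in C57BL/6 and 0.03 in BALB/c, and the homeobox gene En1 had 0.59 in C57BL/6 and -0.03 in BALB/c.

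Wnt genes moved in both directions. Of 21 Wnt ligands and targets, 2 were called higher and 7 lower (4.71% and 3.28% of all genes), with a list median of -0.23 beside -0.01 for all genes. Wnt5a, a ligand of the noncanonical pathway, rose alike by 0.38 ± 0.08 (SE; adjusted p = 0.014), with 0.49 in C57BL/6 and 0.26 in BALB/c. Nkd1, a feedback inhibitor and target, changed by -0.43 ± 0.09 (SE; adjusted p = 0.0145) and was shifted alike. Wnt11 (-1.04) and Lgr5, an R-spondin receptor (-0.88), fell on average and overlapped in BALB/c. Of 11 secreted Wnt antagonists, 2 were called higher and 3 lower, beside 4.71% and 3.28% of all genes. Sfrp2 was shifted alike and changed by -0.64 ± 0.09 (SE; adjusted p = 0.00309). Dkk3 was shifted alike too and changed by -0.44 ± 0.10 (SE; adjusted p = 0.0228). The Dkk3 call was lost without BALB/c wild-type replicate 13 or mutant replicate 18 (adjusted p up to 0.0677). Wif1 went the other way in C57BL/6, with effects of 0.95 in C57BL/6 and -0.24 in BALB/c, and Sfrp1 changed in C57BL/6 with -2.03 in C57BL/6 and -0.02 in BALB/c; both differed by the interaction test.

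Some genes of fibrous matrix fell in both strains. Of 17 collagens of tendon, skin and basement membrane, 3 fell and 0 rose (3.28% and 4.71% of all genes), and all 3 were shifted alike, beside 1.17% of all genes. The other 14 did not pass the test, and the list median was -0.07. Col7a1, the collagen of anchoring fibrils, was at 41.7, 35.3 and 33 CPM in wild types and 23.3, 21.6 and 19.2 CPM in mutants of C57BL/6. The BALB/c samples held 27.1, 20.6 and 24.8 CPM in wild types and 10.7, 13.2 and 11.3 CPM in mutants. Mutants in each strain were far below wild types, and the change was -0.91 ± 0.09 (SE; adjusted p = 0.000846). Col8a1 and Col8a2 are the chains of the short-chain collagen VIII. Col8a1 was at 104, 121 and 163 CPM in wild types and 81.1, 99.96 and 81.3 CPM in mutants of C57BL/6. It was at 312, 314 and 318 CPM in wild types and 141, 203 and 179.7 CPM in mutants of BALB/c. Col8a1 changed by -0.71 ± 0.11 (SE; adjusted p = 0.005), and Col8a2 by -0.44 ± 0.07 (SE; adjusted p = 0.00492).

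Small leucine-rich proteoglycans bind collagen and set its fibril size, and 3 of 13 were called lower and 0 higher, beside 3.28% and 4.71% of all genes. Aspn (asporin), which also restrains mineral deposition, changed by -0.59 ± 0.11 (SE; adjusted p = 0.00871). Fmod (fibromodulin) was at 311, 393 and 418 CPM in wild types and 223, 261 and 249 CPM in mutants of C57BL/6. BALB/c gave 647, 577 and 562 CPM in wild types and 365, 525 and 377 CPM in mutants. Its change was -0.56 ± 0.10 (SE; adjusted p = 0.00886), and both genes were shifted alike, beside 1.17% of all genes shifted alike downward. Ogn (osteoglycin, -0.28) overlapped in C57BL/6 and was called in 4 of the 12 fits without 1 sample. Of 2 further matrix genes picked after their values were seen, C1qtnf3, a secreted protein of cartilage and perichondrium, changed by -1.05 ± 0.15 (SE; adjusted p = 0.00269). Mfap4, a microfibril protein, changed by -0.54 ± 0.08 (SE; adjusted p = 0.0034). In C57BL/6 Mfap4 was at 136, 190.5 and 159 CPM in wild types and 98.3, 97.9 and 109 CPM in mutants. For BALB/c the values were 347, 319 and 345 CPM in wild types and 282, 252 and 229 CPM in mutants. Aspn and Ogn both overlap Cenpp in the annotation used. The summed level of 20 suture mesenchyme genes was 2881 to 4191 CPM in C57BL/6 wild types and 2678 to 2814 in mutants, and 2940 to 3749 and 2782 to 3100 in BALB/c. Its part in the fall of matrix genes was not tested.

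**Figure D4:**
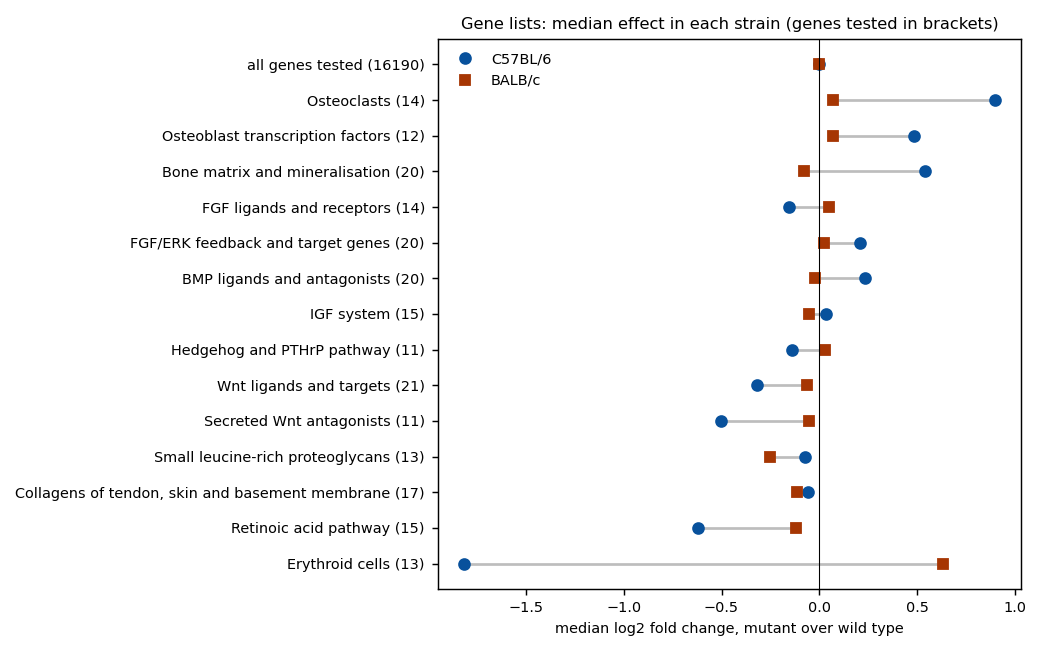
Median log2 fold change (mutant over wild type, horizontal axis) of each gene list in C57BL/6 (circles) and BALB/c (squares), with the number of genes tested in brackets. Osteoclast genes have medians of 0.90 and 0.07, bone matrix genes 0.54 and -0.08 and erythroid genes -1.81 and 0.63, while the proteoglycan and collagen lists are under 0 in both strains.

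Some osteoblast genes were called higher on average, with smaller estimates in BALB/c. Of 12 osteoblast transcription factors, 5 were called higher and 0 lower, beside 4.71% and 3.28% of all genes. The strains' effects differed by the interaction test in 2 of these 5, beside 454 of the 1294 called genes. Runx2, the factor without which osteoblasts do not form, was at 304, 305 and 320.1 CPM in wild types and 458, 493 and 508 CPM in mutants of C57BL/6. The matching BALB/c values were 229, 261 and 240.1 CPM in wild types and 235, 298 and 321 CPM in mutants. The lowest BALB/c mutant lay among the wild types, and the average was 0.44 ± 0.07 (SE; adjusted p = 0.00502), with 0.65 in C57BL/6 and 0.23 in BALB/c. Dlx3 had 0.53 in C57BL/6 and 0.14 in BALB/c and Dlx6 had 0.53 in C57BL/6 and 0.10 in BALB/c. Dlx6 was the 1 factor of the list shifted alike, beside 1.47% of all genes shifted alike upward. Dlx6 overlaps 2 antisense genes, and its call was kept in 8 of the 12 fits without 1 sample.

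Of 20 bone matrix and mineralisation genes, 4 were called higher and 0 lower (4.71% and 3.28% of all genes), and 14 were called higher within C57BL/6 (11.3% of all genes). Slc20a2, a phosphate carrier, was the 1 shifted alike, beside 1.47% of all genes shifted alike upward. It was at 76.8, 87.5 and 83.4 CPM in wild types and 114, 112 and 133 CPM in mutants of C57BL/6. In BALB/c it was at 122, 127 and 92.9 CPM in wild types and 143, 131 and 141 CPM in mutants. The rise was 0.41 ± 0.08 (SE; adjusted p = 0.0108). Ank and Enpp1, which supply the mineral inhibitor pyrophosphate, and Spp1 (osteopontin) were called on average. Ank had 1.00 in C57BL/6 and -0.12 in BALB/c. Enpp1 had 0.70 in C57BL/6 and -0.03 in BALB/c. Spp1 had 0.94 in C57BL/6 and -0.22 in BALB/c and was called in 5 of the 12 fits without 1 sample. These 3 differed by the interaction test, and each BALB/c effect was under 0.

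Osteoclast genes gave the highest share of calls of the lists, 13 of 14 higher beside 4.71% of all genes, yet 11 of those 13 differed between strains by the interaction test, beside 454 of the 1294 called genes. Calcr alone was shifted alike, beside 1.47% of all genes shifted alike upward. Dcstamp, which is needed for osteoclast fusion, is an example. It was at 17.3, 18.2 and 20.00 CPM in wild types and 42.7, 40.7 and 42.4 CPM in mutants of C57BL/6. The BALB/c samples held 26.3, 25.6 and 25.6 CPM in wild types and 24.6, 26.9 and 28 CPM in mutants. In C57BL/6 the lowest mutant was far above the highest wild type, and in BALB/c the genotypes overlapped. Mmp9, a protease of resorbing osteoclasts, had 0.96 in C57BL/6 and 0.09 in BALB/c. Oscar, an osteoclast co-receptor, had 0.93 in C57BL/6 and 0.15 in BALB/c. Tnfrsf11a, the receptor for RANKL, had 0.78 in C57BL/6 and 0.15 in BALB/c. Of 10 macrophage genes 3 were called higher (4.71% of all genes) and 0 shifted alike upward (1.47%), with Cd68 at 0.93 in C57BL/6 and -0.16 in BALB/c and Cd163, a scavenger receptor, at 0.87 in C57BL/6 and 0.19 in BALB/c. Capg, an actin-capping protein, was the 1 called gene of 8 in osteocytes and late osteoblasts (7.99% of all genes), with 0.72 in C57BL/6 and 0.05 in BALB/c. The 5 RANKL, OPG and CSF1 genes gave 2 calls upward (4.71% of all genes), Csf1r (0.76 in C57BL/6 and 0.01 in BALB/c) and Tnfsf11, which encodes RANKL (0.80 in C57BL/6 and 0.08 in BALB/c).

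Syk, Inpp5d, Nckap1l, Rac2 and Itgb2, which act in leukocytes, were picked after their values were seen and were shifted alike. Within BALB/c alone 0 of the 5 were called, beside 0.136% of all genes. Syk, a kinase that carries signals from immune receptors and from osteoclast co-receptors, was at 38.1, 33.8 and 33 CPM in wild types and 43.7, 47.5 and 47.6 CPM in mutants of C57BL/6. BALB/c gave 40.2, 47.4 and 42.8 CPM in wild types and 60.6, 56.4 and 56.4 CPM in mutants. The strain effects of 0.40 in C57BL/6 and 0.41 in BALB/c were nearly equal, and Syk rose by 0.41 ± 0.05 (SE; adjusted p = 0.00225). Inpp5d, the phosphatase SHIP1 of blood cells, rose by 0.30 ± 0.04 (SE; adjusted p = 0.00232), with 0.34 in C57BL/6 and 0.27 in BALB/c. Nckap1l, a part of the actin-regulating WAVE complex in blood cells, rose by 0.40 ± 0.06 (SE; adjusted p = 0.00366). Rac2 and Itgb2, a GTPase and an integrin chain of leukocytes, had unequal effects. Rac2 had 0.64 in C57BL/6 and 0.13 in BALB/c, Itgb2 had 0.66 in C57BL/6 and 0.10 in BALB/c, and both differed by the interaction test. The summed macrophage genes were 392 to 489 CPM in C57BL/6 wild types and 631 to 708 in mutants, and 455 to 514 and 464 to 491 in BALB/c. Neutrophil genes summed to 246 to 431 and 127 to 275 CPM in C57BL/6, and to 596 to 702 and 836 to 912 CPM in BALB/c. The part of blood cells in these rises was not tested.

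Retinoic acid genes gave 0 calls upward and 3 downward of 15, beside 4.71% and 3.28% of all genes. Rbp4, the plasma retinol carrier, was shifted alike, at 4, 3.73 and 3.59 CPM in wild types and 2.44, 2.67 and 2.26 CPM in mutants of C57BL/6. For BALB/c the values were 23.4, 23.7 and 24 CPM in wild types and 20.2, 20.7 and 18.8 CPM in mutants. The change was -0.43 ± 0.06 (SE; adjusted p = 0.00269). Cyp26b1, which breaks down retinoic acid, changed by -0.35 ± 0.07 (SE; adjusted p = 0.0132) with -0.22 in C57BL/6 and -0.49 in BALB/c, and overlapped in C57BL/6. Crabp2, an intracellular carrier, had -1.66 in C57BL/6 and -0.24 in BALB/c and was called in 6 of the 12 fits without 1 sample. Of 15 immediate early and stress genes, which tissue digestion can raise, 4 were called higher (4.71% of all genes) and 0 shifted alike upward (1.47%): Jund (0.24), Egr3 (0.64), Fosb (0.31) and Hspa1a (0.70). Hspa1a shares near-identical sequence with Hspa1b, so its counts are uncertain.

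The medians of many lists had opposite signs in the strains, among them the erythroid, mitosis and cartilage lists. B cell precursors, with medians of -0.77 in C57BL/6 and 0.69 in BALB/c, had 8 of 10 genes passing the interaction test (10% of all genes). Of 13 erythroid genes, 7 were called lower (3.28% of all genes), and all 7 differed between strains by the interaction test (10% of all genes). Klf1, the master factor of red cell genes, was at 9.56, 6.14 and 6.43 CPM in wild types and 1.08, 1.46 and 1.35 CPM in mutants of C57BL/6. The matching BALB/c values were 9.09, 7.53 and 10.7 CPM in wild types and 17.1, 16.2 and 13.8 CPM in mutants. The genotypes were apart in both strains and in opposite directions. Ermap (-1.81 in C57BL/6 and 0.78 in BALB/c) and Gata1 (-2.29 in C57BL/6 and 0.44 in BALB/c) followed the same signs. Ccna2, the 1 called gene of 16 in mitosis (7.99% of all genes), had -0.70 in C57BL/6 and 0.28 in BALB/c, and its groups were apart in opposite directions. The interaction test called 15 of the 16 mitosis genes (10% of all genes), and the list medians were -0.63 in C57BL/6 and 0.29 in BALB/c. Of 16 cartilage genes, 0 were called, with list medians of -2.45 in C57BL/6 and 0.75 in BALB/c. By the interaction test 2 of the 16 differed (10% of all genes), and the summed cartilage level of BALB/c mutants was 5927, 11380 (replicate 17) and 5809 CPM against 5313 to 6298 in wild types, so 1 library stood above. Of 15 ciliated-cell genes 2 were called lower (3.28% of all genes), Foxj1 with -1.82 in C57BL/6 and -0.16 in BALB/c and Tekt2, which was shifted alike (-0.62) and lost its call without BALB/c mutant replicate 18 (adjusted p = 0.0504). Adcy3, with 0.51 in C57BL/6 and 0.04 in BALB/c, was the 1 called gene of 18 in the olfactory and airway list, and Fabp7 (-0.94), which was shifted alike, the 1 of 13 in neurons and glia, beside 7.99% of all genes called. Of 14 endothelium and smooth muscle genes, Kdr, a receptor for vascular endothelial growth factor, was called higher (0.24) and Tagln, an actin-binding protein of smooth muscle, lower (-0.49), beside 4.71% and 3.28% of all genes.

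Of the genes called on average with a mean of at least 1 CPM whose genotypes overlapped in a strain, the 3 largest changes each way were named. Pax7, a marker of muscle stem cells and of neural crest, had the largest fall of this kind, at -2.46. Its values were 6.75, 1.81 and 2.95 CPM in wild types and 0.723, 0.243 and 0.431 CPM in mutants of C57BL/6. In BALB/c they were 0.977, 0.371 and 0.176 CPM in wild types and 0.18, 0.215 and 0 CPM in mutants. The fall rested on low counts and was called in 6 of the 12 fits without 1 sample. Svopl, an orphan transporter (-1.74), and Perp, an epithelial desmosome protein (-1.38), were the other 2. Svopl had -2.78 in C57BL/6 and -0.69 in BALB/c and was called in 2 of the 12 such fits. Perp had -2.53 in C57BL/6 and -0.24 in BALB/c and was called in 4 of the 12. Upward, Klhl33 had 2.03 in C57BL/6 and 0.08 in BALB/c, Ryr2, a calcium release channel of muscle, had 0.45 in C57BL/6 and 1.56 in BALB/c, and the Mir145 locus had 2.15 in C57BL/6 and -0.26 in BALB/c. Klhl33 and Mir145 differed between strains by the interaction test. Ryr2 was called in 3 of the 12 fits, and Mir145, a hairpin that lies inside the longer gene E330013P06, in 3 of the 12.

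The averaged count depended on single samples. Without C57BL/6 mutant replicate 4, 2621 genes were called, and without BALB/c mutant replicate 18, 493. The number shifted alike was 568 and 233 in these fits. The model with strain and genotype alone called 172 genes, 106 higher and 66 lower, of which 149 were shifted alike. Of the 116 named genes, 69 kept their call whichever sample was left out. The other 47 lost it in at least 1 such fit: 45 without BALB/c mutant replicate 18, 41 without BALB/c wild-type replicate 13 and 39 without C57BL/6 mutant replicate 6. Without C57BL/6 mutant replicate 4, 0 of them lost it. Among named genes whose share of such fits is not given above, Tnfsf11 and Ccna2 were called in 9 of the 12 each, Egr3 in 8, Wif1 and Fosb in 6, Sfrp1, Foxj1, Tagln, Kdr and Cd163 in 4 and Fabp7 and Hspa1a in 3.

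The counts of called genes per list moved in the same fits. So did those over all genes, at 338 to 1182 higher and 155 to 1439 lower calls. Osteoclast genes gave 11 to 13 higher calls, osteoblast transcription factors 3 to 6 and bone matrix genes 3 to 6. Collagens gave 3 to 4 lower calls and small leucine-rich proteoglycans 2 to 4. The 14 FGF ligands and receptors gave 0 to 3 higher and 1 to 4 lower calls, and Wnt ligands and targets 3 to 8 lower. Erythroid genes gave 5 to 8 lower calls. The lists of neighbouring tissue depended most on 1 sample, C57BL/6 mutant replicate 4. Without it, 13 of the 16 cartilage, 10 of the 15 ciliated-cell and 7 of the 13 neuron and glia genes were called lower. So were 6 of the 18 olfactory and airway genes and 9 of the 15 retinoic acid genes. In that fit 1439 of 16500 genes were called lower, against 531 of 16190 with all samples. Each of these list counts was at most 4 without any other single sample. With libraries scaled by their totals, BMP genes gave 1 higher call, suture mesenchyme genes 1, and immediate early and stress genes 1. Over all 16190 genes, the higher calls fell from 763 to 328 with the same change of scaling. Of the 116 named genes, 97 were called with that scaling, 89 with the Y-linked level as a covariate and 38 in the model of strain and genotype alone. The ciliated covariate left 10 and the erythroid covariate 1.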

How the data were processed

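RNA from 12 frontal bone samples (3 per group) was sequenced, and gene tables for the whole series were deposited. Per the submitters' processing notes, bcl2fastq, TopHat2 2.0.6, HTSeq, DESeq2 and the mm10 build were used. The deposited read counts per gene are whole numbers and all of them are even. The authors also deposited RPKM values, used here to check the tissue per length. The authors' table of DESeq2 results was not used.

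Counts were tested with edgeR 4.0.16 in R 4.3.3 (TMM scaling, filterByExpr with a minimum count of 10, 1 mean per group over all 12 samples, 8 residual degrees of freedom, quasi-likelihood F test, Benjamini-Hochberg adjustment over 16190 of 23358 genes). Contrasts were the mean of the 2 strain effects, each strain's effect and their difference (interaction). DESeq2 1.42.0 and limma 3.58.1 (voom) were alternatives, with other scalings, filters, covariates and each sample left out. On simulated counts for the averaged effect (16053 genes), 69% of 0.5 and 85% of 1 log2 changes were recovered, with 8 false calls. The 100 genes changed by each size had a mean of at least 1 CPM and the same effect in both strains. No other gene was made to differ between genotypes, so unequal strain effects and differing tissue content were not simulated. Named genes were Fgfr2, the 12 with the largest averaged change each way among genes shifted alike with a mean of at least 1 CPM, up to 4 called genes of each of 33 lists, 3 each way that overlapped in a strain, and genes said to be picked after their values were seen; 4 genes that this rule names are not reported here. Members and lists were chosen with earlier results of these data known. Depth ranged from 27181658 to 46521546 counts, so the precision of low genes is limited by counting as well as by 3 samples per group.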

Additional observations from a re-analysis of the deposited data

Results flagged for a closer look

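The genes below were called in the averaged effect, or named from a list, although their 2 strain effects differed by the interaction test (edgeR, adjusted p under 0.05 over all genes). Each value is the BALB/c effect minus the C57BL/6 effect on the log2 scale. With 3 samples per group no test for single outlying samples was made.

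Among genes shifted alike, the difference was 0.85 for Elk4, which rose more in BALB/c. It was -0.54 for Bmp3, -0.34 for Pik3r1, -0.50 for Rac2, -0.56 for Itgb2, -0.75 for Cp, -0.57 for Tbx2 and -0.50 for Lrp4, all of which rose more in C57BL/6. Among receptors and signals, it was -0.46 for Fgfr1, -1.19 for Wif1, 2.01 for Sfrp1, -0.80 for Igfbp5, -0.62 for Bmp1 and 1.64 for Ihh.

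For osteoblast and suture genes the difference was -0.38 for Dlx3, -1.12 for Ank, -0.73 for Enpp1, -1.16 for Spp1, -0.34 for Foxc1, -0.62 for En1 and -0.67 for Capg. Among osteoclast and macrophage genes it was -1.14 for Dcstamp, -0.63 for Tnfrsf11a, -0.87 for Mmp9, -0.79 for Oscar, -0.75 for Csf1r, -0.72 for Tnfsf11 and -1.09 for Cd68. The C57BL/6 effect was the higher one in each of these 14 genes.

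The largest differences were in erythroid genes, at 3.30 for Klf1, 2.73 for Gata1 and 2.60 for Ermap, where the C57BL/6 effect was under 0 and the BALB/c effect above 0. Ccna2, a cyclin of dividing cells, had 0.98 with the same signs. The remaining genes were Jund (-0.52), Fosb (-0.63), Adcy3 (-0.47), Klhl33 (-1.94) and the Mir145 locus (-2.41), each higher in the mutants of C57BL/6.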

How the results depend on the processing

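DESeq2 called 2203 genes in the averaged effect and, in the both-strains test, 18 against 0; limma-voom called 1 in the latter. The model of strain and genotype alone called 172 (149 shifted alike), the Y-linked covariate 837, the ciliated covariate 32 (21 alike) and the erythroid covariate 2 (0 alike). The last 2 covariates vary mostly between groups. Leaving out each sample in turn gave 493 to 2621 calls, 233 to 726 shifted alike and 0 to 2 in the both-strains test. Beyond the 2 samples named above, the calls moved by over 1.5 times without C57BL/6 mutant replicates 5 (827) or 6 (549), BALB/c wild-type replicates 13 (560) or 15 (699), or BALB/c mutant replicate 17 (653). For genes shifted alike this held without C57BL/6 mutant replicate 6 (236) and BALB/c wild-type replicates 13 (260) and 14 (726). Leaving out C57BL/6 mutant replicate 4 and BALB/c mutant replicate 16 together, chosen after seeing the data, gave 2569 calls, 1012 alike and 2 in the both-strains test. Except as given, the cause was not tested. The total stayed within 1.5 times in the other settings. Library totals without a composition factor gave 992 calls, but the higher ones went from 763 to 328 and those shifted alike upward from 238 to 124, so 33.1% were higher against 59%, and the median of all genes was at -0.09. Halved counts, chosen after seeing the data, gave 1348. None of the 116 named genes changed direction in any of the settings run. No paired analysis was possible because the groups share no replicate numbers. Low genes such as Shox2 and Gata3, near 1 CPM, are limited by depth.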

Other observations

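The genes shifted alike differed from all tested genes in simple properties, given here as descriptions. The median length given for a gene in the deposited table was 4353 bases for the 238 that rose and 3228 for the 189 that fell, against 2795 over all 16190 genes tested. The median level was 38.4 CPM for those that rose, 17.6 CPM for those that fell and 15.3 CPM over all. The median GC content of the longest annotated transcript (GENCODE vM21) was 49.7%, 52.1% and 49.96% in the same order, with a value for 92.4%, 92.1% and 90.3% of genes. On the X chromosome lay 4 of the 238 (1.68%), 8 of the 189 (4.23%) and 535 of all (3.30%).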
